A study of Mus musculus with 137 samples.

Results

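The crypt compartment of the duodenum was compared between mice given a low concentration of hexavalent chromium, Cr(VI), in drinking water for 7 days and mice given water without it. The exposed group pooled the 0.1 ppm and 1.4 ppm mice as 1 group of 11 crypt libraries, and the time-matched control group held 5, so that 16 of the 137 libraries of the series entered the comparison. Members were taken by their labels: every crypt library of 7 days at 0.1 ppm (6 mice), at 1.4 ppm (5 mice) or at 0 ppm (5 mice). All mice were wildtype females of the B6C3F1 cross, which carries a C57BL and a C3H genome, and the exposed mice drank sodium dichromate dihydrate ad libitum. Control mice carried the numbers 46 to 50, the 0.1 ppm mice 90 and 126 to 130, and the 1.4 ppm mice 206 to 210. A pathologist dissected the villi away from a fixed, paraffin-embedded duodenal section and the crypts away from its neighbour, the tissue left on each slide was scraped off, and transcripts were counted with TempO-Seq, in which a pair of detector oligos is ligated on each target RNA and the ligated probe is sequenced. The day after 7 days of exposure is called day 8 below.

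The crypt is the invagination at the base of the villus where stem cells divide and feed the epithelium, with Paneth cells beside them that secrete antimicrobial defensins. Cr(VI) in drinking water is known for cytotoxicity and regenerative hyperplasia in the rodent duodenum at high concentrations, and the villus meets the ingested metal before the crypt does. The comparison of pooled low doses asks whether any transcript of the crypt differed at concentrations far below those. In bulk samples fewer cells of a type and less RNA per cell cannot be told apart.

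The 16 libraries held 1950698 to 4759008 counts each. Totals did not separate the groups (exposed minus control -275213 counts, exact permutation test, two-sided, p = 0.522), nor did the number of probes detected (p = 0.907, exact permutation test, two-sided). The crypt library of control mouse 49 stood apart. Its villus enterocyte markers summed to 109824 CPM (counts scaled to library size after TMM normalisation) against 43639 to 65582 CPM in the other 4 controls, and its stem cell and Paneth cell markers summed to 3385 CPM against 11256 to 38640 CPM. The exposed libraries had 37544 to 83271 CPM of villus and 8209 to 22294 CPM of stem and Paneth markers. The defining markers of the crypt, Olfm4 and the defensins, were present in both groups. The 0.1 ppm library of mouse 126 stood apart on the first principal component, which held 17.2% of the variance, and the library of mouse 49 on the next component, which held 15.4%. The called genes and the medians of the gene lists are therefore also given without mouse 49.

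**Figure D1:**
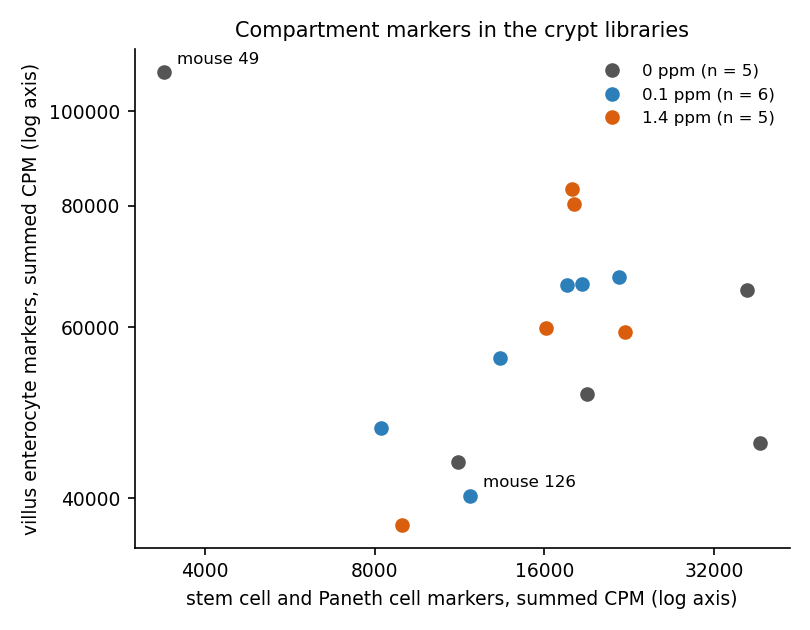
Summed CPM of villus enterocyte markers (vertical, log axis) against summed CPM of stem cell and Paneth cell markers (horizontal, log axis) in the 16 crypt libraries, coloured by concentration. Control mouse 49 lies alone at the upper left, with 109824 CPM of villus markers and 3385 CPM of stem and Paneth markers.

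Of 26365 probes for 19020 genes, 5 probes, each of a different gene, were differentially expressed at an adjusted p under 0.1 (edgeR quasi-likelihood test, Benjamini-Hochberg adjustment), which is 0.019% of those tested. All 5 were lower in the exposed crypts: *Ighv1-47* and *Igkv19-93*, variable segments of the immunoglobulin heavy and kappa light chain; *Ctnnd1*, which encodes p120-catenin of the adherens junction; *Sgk1*, a kinase induced by glucocorticoids; and *Ccl25*, a chemokine of the small intestinal epithelium that recruits CCR9-bearing lymphocytes and plasma cells. Log2 folds ran from -0.95 to -4.38. At an unadjusted p under 0.05, 1148 probes were lower (4.35%) and 781 were higher (2.96%), and no higher probe passed the adjusted threshold. Without control mouse 49 none of the 26330 probes tested passed in edgeR, with 1735 at an unadjusted p under 0.05. DESeq2 on all libraries called 22 genes, 12 higher and 10 lower, of which 2 were among the 5. On simulated counts the edgeR fit of all libraries also called unchanged probes, mostly of low counts, more often than its threshold allows.

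The germline sequences of the 2 immunoglobulin segments are shown because they carried the largest folds of the 5 called genes and because close relatives can share a probe. Both are GENCODE vM21 coding sequences on GRCm38, written in lower case with capitals at every base that differs from the closest other segment of the same chain. Of *Igkv19-93* the longer exon is printed. *Ighv1-47* lies on chromosome 12 (chr12:114991108-114991401, minus strand, a single coding exon in this transcript). *Igkv19-93* lies on chromosome 6, minus strand, in exon 1 (chr6:68736716-68736764) and exon 2 (chr6:68736297-68736591).
Ighv1-47: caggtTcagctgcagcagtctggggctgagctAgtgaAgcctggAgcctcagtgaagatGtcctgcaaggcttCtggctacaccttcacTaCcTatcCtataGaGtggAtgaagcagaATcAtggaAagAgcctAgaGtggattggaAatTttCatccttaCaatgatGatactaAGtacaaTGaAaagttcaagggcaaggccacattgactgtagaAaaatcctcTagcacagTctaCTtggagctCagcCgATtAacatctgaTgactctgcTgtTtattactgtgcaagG
Igkv19-93, exon 2: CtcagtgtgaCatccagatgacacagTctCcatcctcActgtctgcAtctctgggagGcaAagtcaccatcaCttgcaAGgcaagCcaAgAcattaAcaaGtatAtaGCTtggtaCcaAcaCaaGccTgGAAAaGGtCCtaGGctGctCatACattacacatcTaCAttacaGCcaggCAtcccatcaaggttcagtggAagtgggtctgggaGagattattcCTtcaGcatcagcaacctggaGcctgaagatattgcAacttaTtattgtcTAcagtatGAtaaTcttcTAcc
*Ighv1-47* was closest to *Ighv1-86*, with 250 of 294 bases identical (85%) and a longest run of 43 identical bases shared with any of 182 other heavy chain segments. *Igkv19-93* was closest to *Igkv10-94*, with 270 of 344 bases identical (78.5%) and a longest shared run of 22 bases over 159 other kappa segments. No other segment of either chain reached 90% identity. The segments of the C3H parent were not compared, and hypermutation changes these genes in plasma cells, so which member a probe measured is uncertain.

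*Ighv1-47* read 3.0, 4.85, 227, 446 and 3.23 CPM in control mice 46 to 50. In the 0.1 ppm crypts it read 18.3, 0, 0.799, 0, 3.46 and 7.14 CPM, and in the 1.4 ppm crypts 0.871, 5.87, 2.3, 12.7 and 15.8 CPM. Control mice 48 and 49 were therefore high, and the other 3 controls lay inside the exposed range. The means were 6.11 ± 6.63 CPM (SD, n = 11) and 137 ± 198 CPM (SD, n = 5), a log2 fold of -4.38 ± 0.642 (SE; edgeR adjusted p = 5.7e-06). The other probe of the gene had the same 2 mice high, at 26.5 and 28.9 CPM, with 0 counts in the other 3 controls and at most 3.99 CPM in the exposed crypts. It did not pass (log2 fold -3.46, edgeR adjusted p = 0.118).

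*Igkv19-93* was high in the same 2 control mice. It read 83.0, 105, 441, 1067 and 63.0 CPM in mice 46 to 50, 7.16 to 96.7 CPM in the 6 crypts at 0.1 ppm and 47.0 to 169 CPM in the 5 at 1.4 ppm. The exposed mean was 68.4 ± 47.3 CPM (SD, n = 11) and the control mean 352 ± 429 CPM (SD, n = 5), a log2 fold of -2.33 ± 0.501 (SE; edgeR adjusted p = 0.0677). Its other probe gave -2.27 (edgeR adjusted p = 0.118), with 139 and 360 CPM in mice 48 and 49. Without mouse 49 the log2 folds were -3.15 for *Ighv1-47* (edgeR adjusted p = 0.165) and -1.31 for *Igkv19-93* (adjusted p = 0.754). Without both mice, a choice made after seeing the data, the edgeR fit gave log2 folds of 0.76 for *Ighv1-47* (adjusted p = 0.932) and -0.27 for *Igkv19-93* (adjusted p = 0.959). Of 166 variable segments tested, these 2 were called, 7 were higher (4.22%) and 16 lower (9.64%) at an unadjusted p under 0.05, against 2.61% and 4.86% over all genes tested, and the median log2 fold was 0.06, or 0.09 without mouse 49. The genes of the plasma cell itself did not pass: *Jchain*, the joining chain of secreted IgA, averaged 833 ± 370 CPM in exposed and 1084 ± 358 CPM in control crypts, *Igha* 4503 ± 1410 and 3693 ± 1189 CPM, and *Igkc* 3059 ± 910 and 4250 ± 1227 CPM (SD, n = 11 and n = 5). The plasma and B cell list as a whole had 8 of 13 members positive. Its median log2 fold was 0.29, or 0.28 without mouse 49.

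**Figure D2:**
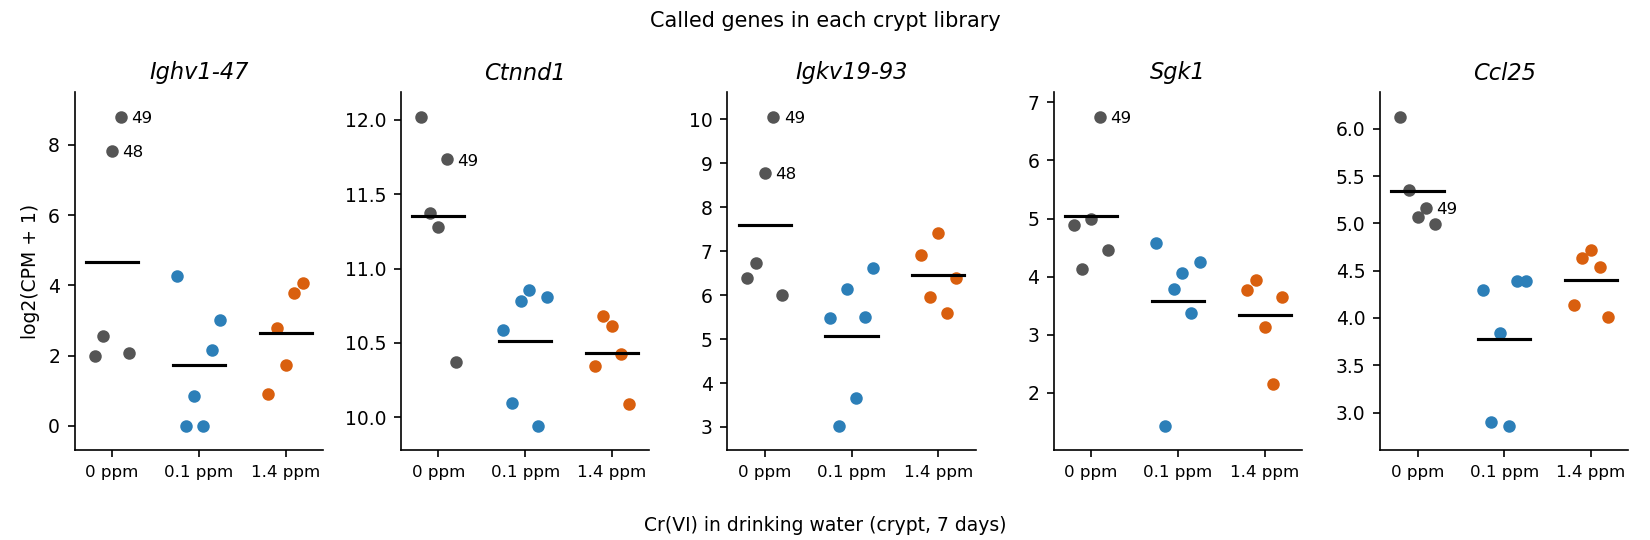
Level of each called gene in every crypt library as log2(CPM + 1), by Cr(VI) concentration; bars are group means and the numbers mark control mice 48 and 49. The means of both immunoglobulin segments in controls rest on mice 48 and 49, that of *Sgk1* on mouse 49, and only *Ccl25* has no overlap between control and exposed crypts.

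*Ctnnd1* read 4152, 2649, 2484, 3403 and 1325 CPM in control mice 46 to 50. It read 984 to 1851 CPM at 0.1 ppm and 1089 to 1641 CPM at 1.4 ppm, so that 4 of 5 controls lay above every exposed crypt and mouse 50 lay among them. The log2 fold was -0.95 ± 0.179 (SE; edgeR adjusted p = 0.00626), from 1454 ± 305 CPM (SD, n = 11) against 2802 ± 1060 CPM (SD, n = 5). The gene lies on chromosome 2 (GRCm38, chr2:84600071-84650765, minus strand, with 30 annotated transcripts) and was read by 3 probes, of which 1 passed. The others gave 233 ± 43.1 against 241 ± 45.0 CPM (SD, n = 11 and n = 5; log2 fold -0.05, SE 0.155, edgeR adjusted p = 0.971) and 16.6 ± 6.23 against 20.5 ± 9.15 CPM (log2 fold -0.28, SE 0.305, edgeR adjusted p = 0.859). Which transcripts each probe reads was not given in the sources used here. The call was lost without control mouse 46 (log2 fold -0.76, edgeR adjusted p = 0.278) or mouse 49 (-0.87, adjusted p = 0.165), and among the 16 libraries alone (adjusted p = 0.303).

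*Ccl25* was the called gene with no overlap between groups. Its probe read 68.9, 39.8, 32.6, 34.9 and 30.7 CPM in control mice 46 to 50, 18.6, 6.48, 13.3, 6.26, 20.0 and 19.9 CPM at 0.1 ppm, and 16.6, 23.7, 25.3, 22.3 and 15.1 CPM at 1.4 ppm. The log2 fold was -1.23 ± 0.273 (SE; edgeR adjusted p = 0.0712), from 17.1 ± 6.37 CPM (SD, n = 11) against 41.4 ± 15.7 CPM (SD, n = 5). The other *Ccl25* probe read at most 17.1 CPM in any crypt and gave 7.48 ± 4.57 against 6.45 ± 4.45 CPM (SD, n = 11 and n = 5; log2 fold 0.16, edgeR adjusted p = 0.967). With both probes summed the fold was -0.90 (edgeR adjusted p = 0.276). The gene lies on chromosome 8 (GRCm38, chr8:4325210-4360020, plus strand). Its call was lost without control mouse 46 (edgeR adjusted p = 0.894), 47 (0.158) or 49 (0.165), and without 0.1 ppm mouse 126, 127, 128 or 129 or 1.4 ppm mouse 206, 209 or 210 (0.103 to 0.189). The log2 fold stayed between -0.98 and -1.32 when any of the 16 libraries was left out.

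*Ccl25* was the single called member among 13 epithelial ligands and immune recruitment genes, whose median log2 fold was -0.26 against -0.01 over all 18998 genes tested. The other mucosal chemokine of plasma cells, *Ccl28*, averaged 23.6 ± 11.3 and 28.7 ± 13.8 CPM, and *Ccl20*, which recruits CCR6-bearing cells, 35.5 ± 35.7 and 48.4 ± 23.4 CPM (SD, n = 11 and n = 5). *Pigr*, the receptor that carries IgA through the epithelium, averaged 382 ± 172 and 306 ± 56.5 CPM. Of the butyrophilin-like genes that shape intraepithelial lymphocytes, *Btnl4* gave a log2 fold of -0.20 (edgeR adjusted p = 0.826) and *Btnl6* 0.02 (adjusted p = 1). In the lymphocyte list 4 of 15 members were positive (median -0.27), and 7 of 15 without mouse 49 (median 0); the list summed to 904.5 CPM in that library against 305 to 619 CPM in the other controls. The granzyme *Gzma* averaged 119 ± 51.6 and 219 ± 142 CPM (edgeR adjusted p = 0.52). Without mouse 49 the median of the ligand list was -0.01.

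Groups did not overlap for 7 probes that were lower (0.0266% of those tested) and 5 that were higher (0.019%). Of the 4368 arrangements of 5 controls among the 16 libraries, a single one separates the groups fully in a given direction. Among 26365 probes some therefore separate by arrangement alone, and non-overlap is given here as a description only. The lower ones were *Ccl25*, *Angptl4*, *Dguok*, *Tox3*, *Gm4340*, *Fn1* and *Ppp1r7*, and the higher ones included *Galnt4*, *Srsf5*, *Card19* and *Ddx39*; those other than *Ccl25* were named after their values were seen. *Angptl4*, an inhibitor of lipoprotein lipase induced by PPARs and by glucocorticoids, ran from 0 to 44.1 CPM in exposed and from 50.6 to 106 CPM in control crypts (log2 fold -1.44 ± 0.357, SE; edgeR adjusted p = 0.154). *Srsf5*, a splicing factor, ran from 110 to 178 CPM in exposed and from 65.6 to 98.7 CPM in control crypts (log2 fold 0.64 ± 0.198, SE; edgeR adjusted p = 0.444). None of the 11 others passed the adjusted threshold.

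*Sgk1* read 28.8, 16.6, 30.8, 107 and 20.9 CPM in control mice 46 to 50, so mouse 49 stood above the rest. It read 1.71 to 22.8 CPM at 0.1 ppm and 3.47 to 14.4 CPM at 1.4 ppm, and mice 47 and 50 of the controls lay within the exposed range. The log2 fold was -1.75 ± 0.388 (SE; edgeR adjusted p = 0.0712), and without mouse 49 it was -1.03 (adjusted p = 0.754). The call was also lost without 0.1 ppm mouse 126, 127, 128 or 129 or 1.4 ppm mouse 206, 208, 209 or 210 (adjusted p = 0.103 to 0.189 in edgeR). The gene lies on chromosome 10 (GRCm38, chr10:21882184-21999903, plus strand) and has 1 probe.

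*Sgk1* was the called member of the 11 glucocorticoid response genes, of which 9 had a negative fold, 3 were lower at an unadjusted p under 0.05 (27.3%) and none was higher. Over all 18998 genes 9656 were negative, 4.86% were lower and 2.61% higher. The list's median log2 fold was -0.64 against -0.01 over all genes. *Tsc22d3*, which encodes the glucocorticoid-induced leucine zipper, averaged 163 ± 50.7 CPM in exposed and 255 ± 56.2 CPM in control crypts (log2 fold -0.64, SE 0.242), *Fkbp5*, a chaperone that restrains the glucocorticoid receptor, 119 ± 53.7 and 170 ± 57.0 CPM (-0.51, SE 0.302), and *Errfi1*, an inhibitor of EGF receptor signalling, 77.7 ± 42.6 and 127 ± 61.3 CPM (-0.69, SE 0.331; n = 11 and n = 5). None of these 3 passed (edgeR adjusted p = 0.592, 0.726 and 0.668). The receptor itself, *Nr3c1*, gave 0.23 (SE 0.2). The median was -0.66 without mouse 49, with 8 of 11 negative, and stayed between -0.57 and -0.77 in all 33 alternatives of the fit. These alternatives draw on the same control mice, and the setting that lowers only the call threshold cannot move a median. Summed over the list, control mice 47 and 50 had 571 and 644 CPM, within the exposed range of 323 to 803 CPM. At the same pooled concentrations the median was -0.18 in the crypts of day 91 and -0.09 in the villi of day 8.

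No member of the circadian clock list passed, and 3 of its 18 genes were higher (16.7%) and 2 lower (11.1%) at an unadjusted p under 0.05, against 2.61% and 4.86% over all genes; these 5 were named after their values were seen. Its median was -0.16, and -0.07 without mouse 49. *Dbp*, a clock output factor, averaged 54.3 ± 28.9 CPM in exposed and 23.6 ± 11.4 CPM in control crypts (SD, n = 11 and n = 5), and its 3 probes gave log2 folds of 1.24, 1.43 and 1.05 (edgeR adjusted p = 0.586, 0.623 and 0.668). *Nr1d1*, the repressor REV-ERB alpha, gave 0.96 and *Per3* 1.30, while *Clock*, an activator of the loop, gave -0.84 from 71.6 ± 26.2 against 129 ± 64.4 CPM (edgeR adjusted p = 0.371) and *Nfil3*, which opposes *Dbp*, gave -0.68. *Bhlhe40*, a repressor of the loop and another abundant member, gave -0.14. The hour at which each mouse was killed was not given in the sources used here, and its part in these values was not tested. All 20 immediate early genes stayed below the threshold, with 15 negative and none at an unadjusted p under 0.05; their median was -0.25, and -0.14 without mouse 49. *Jund*, an AP-1 subunit, gave -0.31, *Ier2* 0.04 and *Myc* -0.04.

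**Figure D3:**
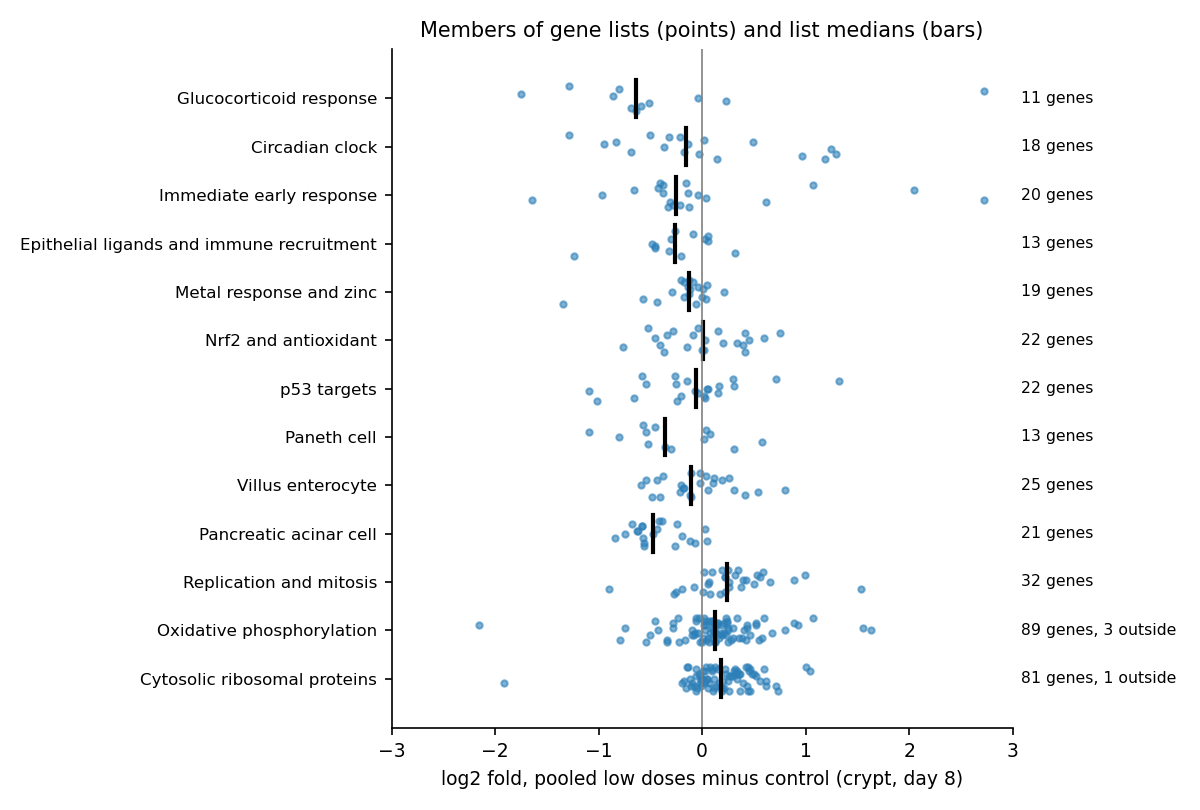
Log2 fold of each tested member (points) and median (bars) of 13 gene lists in the pooled comparison; the number of members tested stands at the right, with those outside the axis. The glucocorticoid list has a median of -0.64 and the pancreatic acinar list -0.48, whereas the antioxidant and p53 lists have medians of 0.01 and -0.06.

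The gene lists of metal handling and stress held no call. Among 19 metal response and zinc genes tested the median was -0.13, and -0.04 without mouse 49. *Fth1*, the ferritin heavy chain that stores iron, averaged 2628 ± 957 and 3908 ± 1413 CPM (log2 fold -0.57, edgeR adjusted p = 0.661), *Ftl1* gave -0.18 and the transferrin receptor *Tfrc* -0.11. The metallothionein *Mt1* gave -1.35 with 1 probe and 1.24 with the other, at means of 11.3 CPM or less, and *Mt2* gave -0.04. The Nrf2 and antioxidant list had a median of 0.01 over 22 genes (0.08 without mouse 49), with *Gsta1*, a glutathione transferase, at 0.45, *Txn1* at 0.15 and *Prdx1* at 0.03. The p53 list had a median of -0.06 over 22 genes, with and without mouse 49, with *Gadd45a* at -0.26, *Bax* at 0.30 and *Trp53inp1* at -0.15. The hypoxia list had a median of 0.14 over 16 genes (0.10 without mouse 49), with *Hif1a* at 0.31 and *Ldha* at 0.03. At an unadjusted p under 0.05, 2 of its genes were higher (12.5%) and 1 lower (6.25%), against 2.61% and 4.86% over all genes. The interferon list had a median of -0.11 with 12 of 30 positive, and *Irf1* gave -0.31. Without mouse 49 the interferon median was 0.23 with 19 of 30 positive.

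Genes of growth, division and oxidative phosphorylation had positive medians and no call. Over all 18998 genes tested 8941 were positive. Of 32 replication and mitosis genes 27 were positive (median 0.24, 1 higher and 1 lower at an unadjusted p under 0.05), with *Top2a* at 0.22, *Rrm1* at 0.25 and *Mcm6* at 0.09. Of 81 cytosolic ribosomal protein genes 60 were positive (median 0.18; 7 higher, or 8.64%, and 0 lower at an unadjusted p under 0.05, against 2.61% and 4.86% over all genes), although the most abundant, *Rpl4*, *Rps19* and *Rpl21*, gave -0.08, -0.06 and -0.14. Oxidative phosphorylation had 63 of 89 positive (median 0.12), with 7 higher (7.87%) and 0 lower at an unadjusted p under 0.05. The replication and ribosomal medians moved with the library of mouse 49, whose ribosomal genes summed to 17900 CPM against 32528 to 35221 CPM in the other controls and whose replication genes summed to 821 CPM against 1826 to 2081 CPM. Without it the replication median was 0.08 with 19 of 32 positive, and the ribosomal median 0.05 with 44 of 81 positive. The oxidative phosphorylation median was 0.13 without it, with 61 of 89 positive.

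Among cell type markers no gene passed. Paneth cell genes had a median of -0.36 over 13 (*Lyz1* -0.30, *Defa22* -0.58, *Defa24* -0.52), and -0.61 without mouse 49. Villus enterocyte genes had a median of -0.11 over 25 (*Fabp2* 0.04, *Vil1* -0.22, *Rbp2* 0.12), and 0.29 without it. Stem cell and Wnt target genes had a median of -0.19 over 17 (*Olfm4* 0.16, *Smoc2* 0.15, *Axin2* -0.11), and -0.25 without it. Goblet genes had a median of -0.09 (*Fcgbp* -0.33, *Zg16* -0.16, *Spink4* 0.17), enteroendocrine genes 0.20 (*Chga* -0.11, *Gip* 0.40, *Sst* 0.23) and tuft cell genes -0.24 (*Dclk1* 0.72, *Trpm5* 0.34). Without mouse 49 the goblet median was 0.01, the enteroendocrine median 0.08 and the tuft median 0.03, and the tuft median was 0.13 without control mouse 46. Pancreatic acinar genes, from tissue that lies against the duodenum, had 19 of 21 negative and a median of -0.48 with none at an unadjusted p under 0.05; *Cpa1*, a digestive carboxypeptidase, averaged 1457 ± 1194 and 2156 ± 2400 CPM. This median was -0.41 without mouse 49, -0.81 without control mouse 50 and 1.04 without mice 48 and 49. Their summed level ran from 5565 to 56116 CPM in exposed and from 5593 to 74823 CPM in control crypts, with the highest in mouse 48. A fit of the 16 libraries with that level as a covariate called *Ighv1-47* alone (edgeR adjusted p = 0.0634), as did the fit of the 16 libraries without it. The log2 folds with the covariate were -3.44 for *Ighv1-47*, -0.89 for *Ctnnd1*, -1.80 for *Igkv19-93*, -1.64 for *Sgk1* and -1.22 for *Ccl25*.

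Of 9 genes the study names for low concentrations, *Ctnnd1* was the member called, 8 were negative and the median was -1.94, or -1.93 without mouse 49. The study chose these genes on these samples, so their values are not independent evidence. Apart from *Ctnnd1* they were scarce. *Reg2*, a regenerating islet-derived lectin, averaged 12.6 ± 18.1 CPM in exposed and 52.3 ± 58.9 CPM in control crypts (SD, n = 11 and n = 5; edgeR adjusted p = 0.496). *Muc6*, a mucin of Brunner glands, averaged 0.524 ± 1.58 and 13.96 ± 30.2 CPM (edgeR adjusted p = 0.382), and its control mean rests on mouse 46 at 68.0 CPM. *Egr3*, *Saa1*, *Ppy*, *Slc10a2*, *Slc34a2* and *Slc5a8* averaged at most 4.74 CPM in either group, and none passed in edgeR (adjusted p = 0.649 to 0.98); DESeq2 called *Slc5a8* and another probe of *Slc10a2*. *Slc5a8*, a monocarboxylate transporter, had 0 counts in every control, in 5 of 6 crypts at 0.1 ppm and in 3 of 5 at 1.4 ppm. It read at most 2.99 CPM.

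Among probes with a mean CPM of at least 10, those nearest the threshold on the higher side were led by *Nrbf2*, a subunit of the autophagy lipid kinase complex, and *Rara*, the retinoic acid receptor alpha. *Nrbf2* read 2.85 to 7.98 CPM in controls and 4.37 to 26.7 CPM in exposed crypts (log2 fold 1.93 ± 0.461, SE; edgeR adjusted p = 0.118). *Rara* read 0 to 10.4 CPM in controls and 10.1 to 24.8 CPM in exposed crypts (1.64 ± 0.397, SE; edgeR adjusted p = 0.118). In both, a single exposed crypt fell within the control range. The next 8 by p were *Gm12355*, *Bbox1*, *Gtf2i*, *Prr12*, *Psmd8*, *Aff4*, *Mien1* and *Hint3*, with log2 folds of 0.78 to 2.40 and edgeR adjusted p of 0.263 to 0.382. On the lower side *BC031181* (-0.99), *Micall1* (-1.08), *Banp* (-0.85) and the heat shock co-chaperone *Bag3* (-0.78) shared an edgeR adjusted p of 0.118. These 4, *Nrbf2* and *Rara* were called by DESeq2, and by edgeR with a mean count of at least 10. *Bag3* ran from 137 to 324 CPM in controls and from 57.6 to 184 CPM in exposed crypts.

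Taken apart, 0.1 ppm against control called 4 genes (0.0152% of probes) and 1.4 ppm against control called 1 (0.00379%); both use the same 5 controls. At 0.1 ppm *Ighv1-47* gave -4.66 (edgeR adjusted p = 0.00363), *Igkv19-93* -2.91 (0.0629) and *Ccl25* -1.50 (0.0734). At 1.4 ppm the same genes gave -4.15 (edgeR adjusted p = 0.0429), -1.87 (0.811) and -1.0 (0.811), *Ctnnd1* gave -0.90 and -1.01 (0.133 and 0.136) and *Sgk1* -1.55 and -1.99 (0.826 and 0.396) at the 2 concentrations. The remaining call at 0.1 ppm was *Cdca4*, a cell cycle regulator, at a log2 fold of 4.203 (edgeR adjusted p = 0.0542). It rested on mouse 127 at 91.6 CPM, with the other 5 crypts at 0 to 3.13 CPM, and gave -0.034 without that mouse. Without control mouse 49 neither concentration had a call in edgeR (1358 probes at an unadjusted p under 0.05 for 0.1 ppm vs control and 1477 for 1.4 ppm vs control), with DESeq2 on all libraries calling 17 and 10 genes.

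The 2 concentrations were then compared with each other, 1.4 ppm minus 0.1 ppm, and 1 gene was called (0.00379% of probes). *Setd3*, the actin histidine methyltransferase, gave 1.59 (edgeR adjusted p = 0.00981) through mouse 210 at 502 CPM, with 43.8 to 66.1 CPM in the other 4 crypts at 1.4 ppm and 40.3 to 64.1 CPM at 0.1 ppm. Without mouse 210 the difference was 0.22 (edgeR adjusted p = 1). For the 5 genes called in the pooled comparison the difference ran from -0.44 (*Sgk1*) to 1.04 (*Igkv19-93*), none of them called. At an unadjusted p under 0.05 there were 793 probes.

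Set beside the same genes in other crypts and in the villus, the 5 differences took different values. At 5 ppm, against the same controls on day 8, the log2 folds were -3.08 (*Ighv1-47*), -0.996 (*Ctnnd1*), -1.84 (*Igkv19-93*), -2.49 (*Sgk1*) and -0.82 (*Ccl25*). In the crypts of day 91, after 90 days at the same pooled concentrations and with controls of their own, they were -0.97 ± 1.01, -0.16 ± 0.187, -0.24 ± 0.537, 0.65 ± 0.462 and -0.12 ± 0.29 (SE), and none passed. The difference between the 2 days was tested for every probe. No probe passed in edgeR (lowest adjusted p = 0.753), with 1502 at an unadjusted p under 0.05, and DESeq2 called 5 genes.

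In the villi of day 8 the same pooled concentrations gave log2 folds of 1.06 ± 0.894 for *Ighv1-47*, -0.52 ± 0.185 for *Ctnnd1*, -0.38 ± 0.548 for *Igkv19-93*, -0.89 ± 0.348 for *Sgk1* and 0.05 ± 0.333 for *Ccl25* (SE), none passing. The crypt minus villus difference was called for 1 probe (0.00379%), *Ighv1-47*, at -5.45 on the log2 scale (edgeR adjusted p = 0.0562). In the villi it read 1.28 to 24.8 CPM in the 4 control mice in which it was counted, with 0 in mouse 46, and 72.0 CPM at most in exposed mice, so the difference rests on the crypts of mice 48 and 49. Without mice 48 and 49, a choice made after seeing the data, no probe was called.

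**Figure D4:**
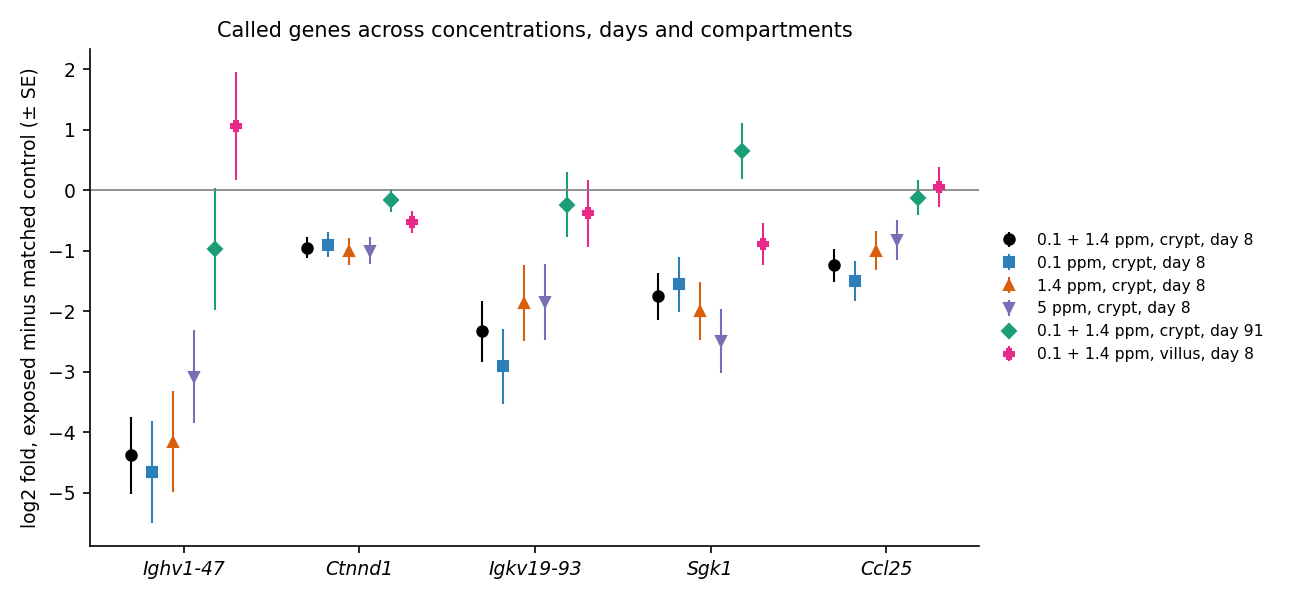
Log2 fold ± SE of the 5 called genes in the pooled low-dose crypts of day 8, at each concentration, at 5 ppm, in the crypts of day 91 and in the villi of day 8. The day 8 crypt contrasts share 5 controls and all lie below 0, whereas those of day 91, with other control mice, and of the villus, from the same control mice, lie nearer 0 or above it.

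The count of calls depended on single libraries. It was 0 without control mouse 49, 43 without control mouse 50 (17 higher and 26 lower), 3 without 46, 4 without 47 and 5 without 48. It was 7, 2, 2, 2, 2 and 5 without 0.1 ppm mice 90 and 126 to 130, and 3, 8, 5, 2 and 4 without 1.4 ppm mice 206 to 210. *Ighv1-47* kept its call in 15 of 16 such fits, *Ctnnd1* in 14, *Igkv19-93* in 9, *Sgk1* in 7 and *Ccl25* in 6. *Igkv19-93* lost it without control mouse 48 (edgeR adjusted p = 0.162) or 49 (0.754), 0.1 ppm mouse 126, 127, 128 or 129 (0.103 to 0.189) or 1.4 ppm mouse 209 (0.134), and *Ighv1-47* without control mouse 49 (0.165). Fitted on the 16 libraries alone, edgeR called *Ighv1-47* (adjusted p = 0.034) and no other of 16843 probes, and its legacy form called none, with *Ighv1-47* at an adjusted p of 0.509.

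**Figure D5:**
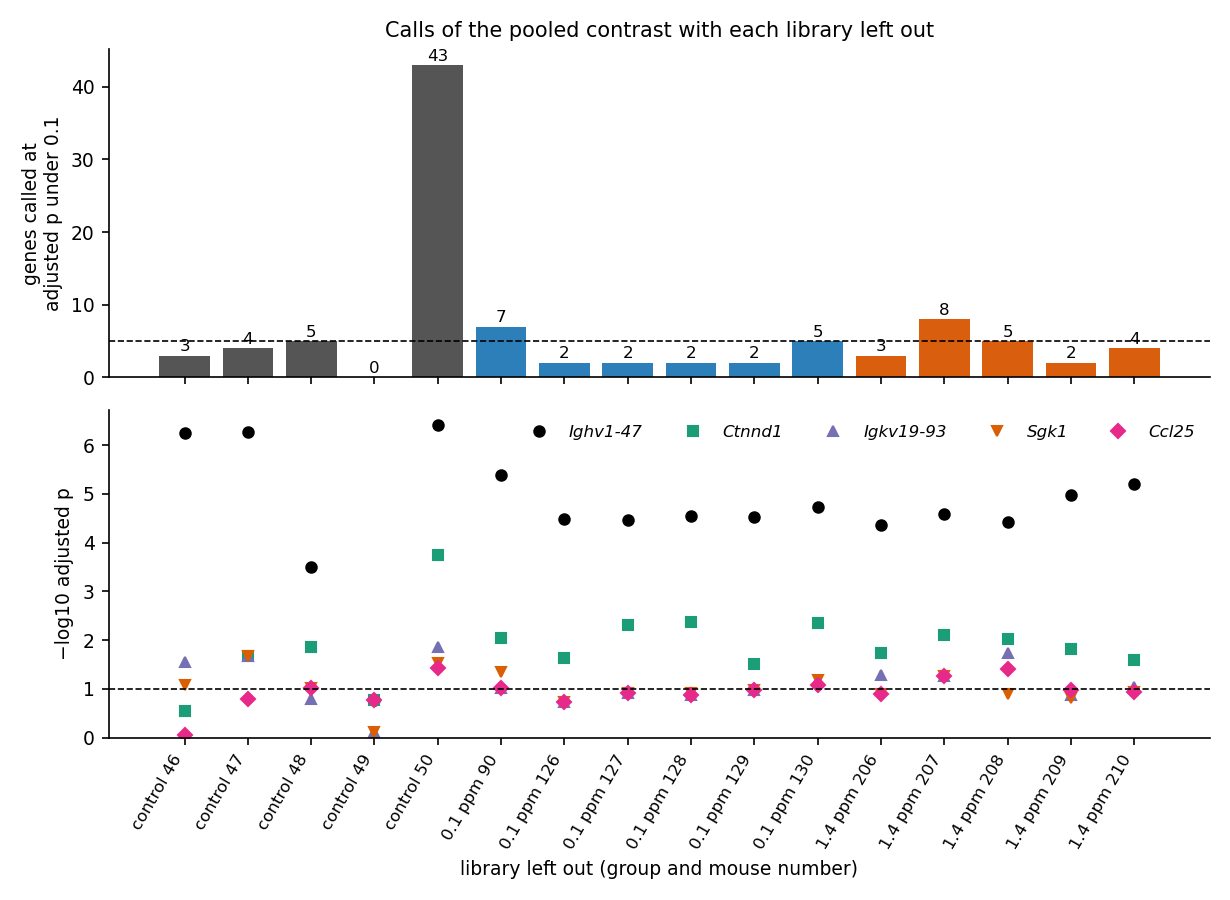
Genes called at an adjusted p under 0.1 with each library left out (upper panel; the dashed line marks the 5 called with all libraries) and −log10 adjusted p of each called gene in the same fits (lower panel; the dashed line marks the threshold). No gene is called without control mouse 49, and 43 are called without control mouse 50.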

How the data were processed

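Read counts per TempO-Seq probe, raw and not normalised, were used as the authors deposited them; the submitters' processing notes name bcl2fastq 2.17.1.14 and Bowtie, and the genome build and probe positions were not given in the sources used here. The table held 30146 probes for 21450 genes in 137 libraries, with 0 columns that matched no sample. The study excluded libraries of low depth or few genes, and its methods give 5 mice a group, whereas the labels list 6 crypts at 0.1 ppm. Mouse 90 was kept as labelled. Its number lies nearer those of the 0.1 ppm mice of 90 days than those of the other 0.1 ppm mice of 7 days. Groups were taken from the labels. Each library came from its own mouse within a compartment. In the main edgeR fit, described below, p-values rest on a spread estimated from all 137 libraries. They do not rest on the spread between the 16 mice compared alone, and that fit had no term for the mouse. Libraries of the 16 held 1950698 to 4759008 counts; among 120 pairs none was identical, and the smallest chi-square per degree of freedom was 12.6, so each library was counted once.

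TMM scaling, filterByExpr and edgeR's quasi-likelihood test (edgeR 4.0.16, R 4.3.3) were applied to all libraries in 1 fit with a level per group, with 0.1 and 1.4 ppm pooled, and p-values were adjusted by Benjamini-Hochberg over 26365 probes at a threshold of 0.1. On simulated counts this fit also called unchanged probes, mostly of low counts, more often than its threshold allows. Fits of the 16 libraries alone are given beside it. Of these only the legacy form was simulated, so how often the default form calls unchanged probes was not tested. CPM are counts scaled to TMM library sizes; the range of a group's libraries and its SD give the precision. A gene with several probes is represented in lists by its probe of largest total count over all libraries.

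The members and lists were chosen with earlier results of these data known. Named genes were those called in any contrast, the 10 probes of smallest p in each direction with a mean CPM of at least 10, the 3 most abundant members and called members of each list, and genes the study names for low doses. A few genes that this rule or the counts cover are not reported here. Crypt and villus libraries that share a mouse number come from the same animal, which is why the mouse served as a block in 1 alternative. Other alternatives used DESeq2 1.42.0, limma 3.58.1 (voom), other filters, scalings and covariates, thinned counts and each library left out; fits without mice 48 and 49 or 49 and 126 and the legacy fit of the 16 libraries were chosen after seeing the data. Segment sequences and gene positions are from GENCODE vM21 on GRCm38, the C57BL reference. Figures were drawn with matplotlib 3.10.9.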

Additional observations from a re-analysis of the deposited data

Results flagged for a closer look

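Single libraries are listed whose value lay outside their group, judged by the gap to the nearest library over the group's range. Of 72 groups examined 15 had such a library (20.8%). The cutoff is meant for normally distributed values, whereas some of these groups held mostly 0 counts or a gene called through a single library. Groups with 0 counts in every library were among the 72 and could not be flagged. The share is therefore not set against a rate by chance.

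Among the called genes, *Sgk1* read 107 CPM in control mouse 49, against 16.6 to 30.8 CPM in the other controls, and *Ccl25* read 68.9 CPM in control mouse 46, against 30.7 to 39.8 CPM. *Cdca4* read 91.6 CPM in 0.1 ppm mouse 127 and 3.23 CPM in control mouse 50. *Setd3* read 502 CPM in 1.4 ppm mouse 210.

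Among the scarce genes the study names, *Egr3* read 14.3 CPM in 0.1 ppm mouse 129 and *Reg2* 38.1 CPM in 0.1 ppm mouse 130. *Muc6* read 68.0 CPM in control mouse 46, 5.28 CPM in 0.1 ppm mouse 90 and 0.489 CPM in 1.4 ppm mouse 207. *Ppy* read 0.734 CPM in 1.4 ppm mouse 207, and *Slc5a8* read 1.78 CPM in 0.1 ppm mouse 130.

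Summed markers stood apart in 3 libraries. Stem cell and Wnt target genes summed to 1494 CPM in 0.1 ppm mouse 90, Brunner gland genes to 78.8 CPM in control mouse 46, and plasma and B cell genes to 11810 CPM in 1.4 ppm mouse 209.

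The effect of low doses on *Ighv1-47* differed between compartments by a test of that difference, crypt minus villus -5.45 on the log2 scale (edgeR quasi-likelihood test, adjusted p = 0.0562). The crypts of control mice 48 and 49 carry it, and no probe was called for this difference without both compartments of those mice.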

How the results depend on the processing

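The pooled comparison called 5 genes, and the count changed with most settings. It was 22 with DESeq2, 10 with DESeq2 size factors in edgeR, 12 with a mean count of at least 10, 3 with the legacy quasi-likelihood form and 3 with thinned counts. It was 2 at a threshold of 0.05 and 2 with the crypt libraries of day 8 alone, 1 with the 16 libraries alone. Fits of those 16 with a covariate called 1 (acinar level) or 0 (log10 total, villus to crypt marker ratio); against all libraries they change the libraries and the probes tested as well as the covariate. It was 0 with limma voom and with the legacy form, both on the 16 libraries, without mice 49 and 126 and without mice 48 and 49. It stayed within 1.5 times of 5 with no filter, with probes summed per gene (4) and with equal weight for the concentrations. Leaving out each library gave 0 (control mouse 49) to 43 genes (control mouse 50).

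For 0.1 ppm against control (4 genes) the count was 17 with DESeq2, 1 with the legacy form, 1 at 0.05, 0 with the libraries of the contrast alone, 0 without mice 49 and 126, and 0 to 8 with each library left out. For 1.4 ppm against control (1 gene) it was 10 with DESeq2, 0 with a mean count of at least 10 or the contrast's libraries alone, and 0 to 2 with each library left out. For 1.4 against 0.1 ppm (1 gene) it was 6 with DESeq2, 0 with the contrast's libraries alone, and 0 to 2 with each library left out. The difference between days (0 genes in edgeR, 1502 probes at an unadjusted p under 0.05) had 5 with DESeq2. The crypt minus villus difference (1 gene) had 6 with DESeq2 and 0 with the legacy form, a mean count of at least 10, the contrast's libraries alone, a threshold of 0.05, or without mice 48 and 49. With the mouse as a replicate block, fitted on the mice of the contrast that had both compartments, it had 1. This was *Ighv1-47* at -4.80 on the log2 scale (edgeR adjusted p = 0.00476). Against the main fit this alternative changes the libraries as well as the pairing, and the contrast's libraries without the block had 0.

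*Ighv1-47* turned to 0.76 on the log2 scale without mice 48 and 49. *Cdca4* at 0.1 ppm ran from -0.034 without mouse 127 to 7.38 without control mouse 50. The causes were not tested. Counts at the low end limit what can be read: *Sgk1*, *Ccl25* and the scarce genes the study names had means of at most 52.3 CPM.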
